A study of Homo sapiens with 14 samples.

Results

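The unedited state of the TEAD4 promoter was read from 8 of the 14 libraries of the series. All 8 derive from HGC-27, an established line of human gastric carcinoma. The 8 comprise the 2 untreated libraries and the 6 libraries of HGC-27 cells that were transfected with 7 guide RNAs alone (gRNA-only cells) and sampled on days 3, 7 and 14, with 2 libraries a day. They were chosen by their titles. The other 6 libraries come from edited cells, the Tr.HGC-27-KRAB line given the DNMT3AL domain and the same 7 guides on the same days. For the 8 libraries described here the labels name neither the KRAB line nor the DNMT3AL domain, and they describe no mock transfection for the untreated cells. All libraries carry the same batch label. The labels do not say whether replicates are separate cultures, so the spread behind each p-value is that between libraries and could be purely technical. The selection medium with doxycycline and blasticidin is described for culture after transfection.

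TEAD4 is a TEA domain transcription factor that binds DNA and is activated by YAP and TAZ, the coactivators that Hippo signalling restrains. Promoters rich in CpG are usually kept free of methylation, and methylation there goes with a silent gene, while CpG sites inside transcribed genes are usually methylated. Guide RNAs direct a Cas9-based protein to matching DNA and have no methyltransferase activity of their own. gRNA-only cells can thus serve as a control for delivery of the guides.

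Methylation was given as a percentage at 157 CpG sites on chromosome 12 (GRCh38). The sites lie between 2958885 and 2964284, around and after the start of TEAD4 (2959397 to 3040676, forward strand). Distances below are in bp from that start, negative before it. Sites were joined into a run where neighbours lay at most 100 bp apart, which gave 6 runs. Run 1 (100 sites, 2958885 to 2959590) spans the start, run 2 (38 sites, 2959762 to 2960007) and run 3 (4 sites, 2960239 to 2960277) follow it, and runs 4 to 6 (15 sites, 2963587 to 2964284) lie farther into the gene. Runs 1 and 2 were dense, with a median of 5 bp between neighbouring measured sites, against 28 bp in run 4 and 16 bp in run 6. The long non-coding RNA gene LOC124902859 (2957598 to 2960048) covers 138 of the sites. Exon and UTR annotation was not used here, and the depth behind each value is unknown.

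LOC124902859 lies on the reverse strand, opposite to TEAD4, so its start is its higher coordinate, 2960048. That start is close to where the dense runs end and is where the nearest sequence for the locus was at hand. The RefSeq window around it (GRCh38.p14, chr12:2959999-2960298) is shown on the forward strand to place the last site of run 2 and the 4 sites of run 3. Capitals mark the 5 CpG that were measured.

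LOC124902859 window: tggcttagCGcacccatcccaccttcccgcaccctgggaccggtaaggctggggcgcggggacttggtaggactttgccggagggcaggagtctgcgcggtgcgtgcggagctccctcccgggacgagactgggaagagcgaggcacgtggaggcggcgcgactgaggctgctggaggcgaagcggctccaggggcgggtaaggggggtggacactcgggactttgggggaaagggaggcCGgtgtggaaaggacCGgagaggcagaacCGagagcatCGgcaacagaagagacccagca

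All 5 measured positions fall on the C of a forward-strand CG. The window is 68.0% G or C and holds 25 CpG, and 32.0% of the 35116 RefSeq promoter windows of this length hold at least as many (searched as CG, which reads the same on both strands). The 20 CpG that were not measured, from 2960026 to 2960215, fill the gap between runs 2 and 3. The first capital pair, CpG 2960007, had a median of 99.98% over the 8 libraries. The 4 pairs at the other end, in run 3, had medians of 1.03 to 1.35%.

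Without editing, the sites around the TEAD4 start were largely unmethylated. By the median over the 8 libraries, 131 of 157 sites (83.4%) were low (under 10%), 4 were intermediate (10 to 50%) and 22 were high (over 50%). Before the start 56 of 64 sites were low, and inside the gene 75 of 93 were. Run 1 held 90 of the low sites, run 2 held 37 and run 3 held all 4 of its own. Their medians ran from 0.235 to 7.70%, with a midpoint of 0.745%. The lowest 5 were CpG 2959293, CpG 2959273, CpG 2959268, CpG 2958960 and CpG 2959247, with medians of 0.235 to 0.310%. Of these, 4 stood close together, from -150 to -104 bp.

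**Figure D1:**
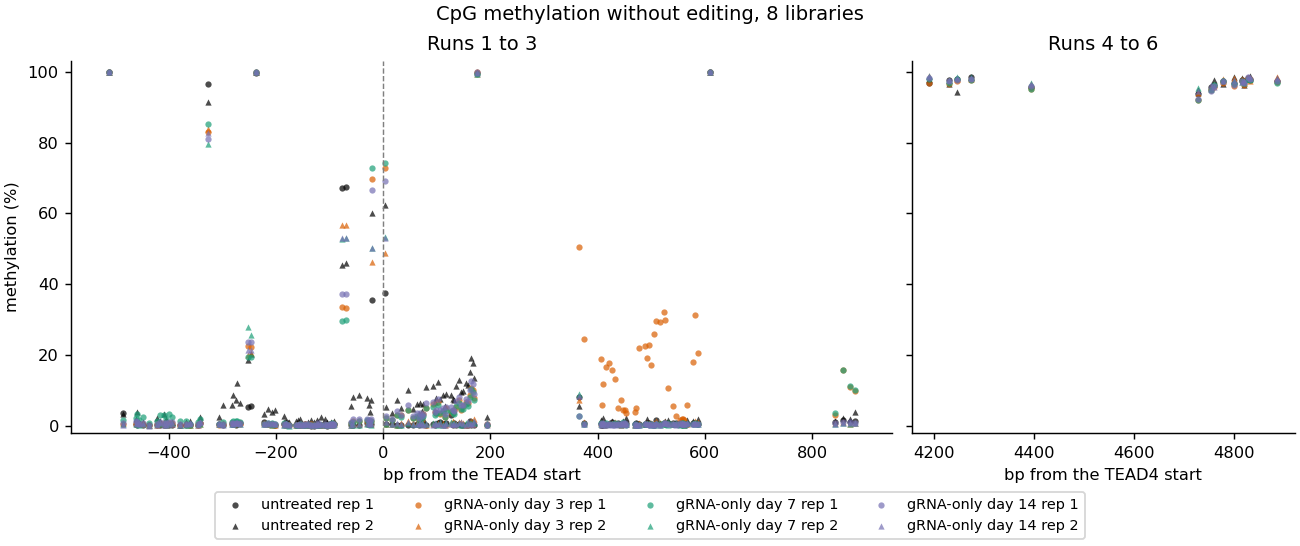
Methylation in percent (vertical) against distance from the TEAD4 start in bp (horizontal) for each of the 8 libraries; colour gives the group and shape the replicate, and the dashed line marks the start. Most sites of runs 1 to 3 lie near 0%, a few single sites lie near 100% or between, and all sites of runs 4 to 6 lie above 92.0%.

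The far sites were highly methylated in every library. The 15 sites of runs 4 to 6 had values between 92.0 and 98.9%, and the largest range of a site over the 8 libraries was 4.26 points. Their run means lay between 96.2 and 97.3% for run 6 and between 96.8 and 98.4% for run 4. The highest median among these sites, 98.2%, was at CpG 2964225, at 4828 bp.

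Single sites with values near 100% stood among the low sites of runs 1 and 2 or at the end of a run. CpG 2958885 (-512 bp, the first site of run 1) had 99.97 to 99.98% and CpG 2959159 (-238 bp) 99.76 to 99.91%. CpG 2959572 (175 bp) had 99.28 to 99.96%, and CpG 2960007 (610 bp, the last site of run 2) had 99.97 to 100.0%. In all 8 libraries these 4 sites lay above every value of runs 4 to 6. In the edited libraries they had 99.74 to 99.98%. Amplicon primer positions were not used here, and whether these values reflect native methylation was not tested. Measured neighbours of the 4 sites in the same run did not share their state. CpG 2958885 and CpG 2960007 end their runs and have such a neighbour on a single side. CpG 2958911, 26 bp after the first of them, had a median of 0.832%. CpG 2959174, 15 bp after CpG 2959159, had 0.643%, and CpG 2959150, 9 bp before it, had 21.03%. CpG 2959566 and CpG 2959590, on either side of CpG 2959572 at 6 and 18 bp, had medians of 4.57 and 0.552%. CpG 2959984, 23 bp before CpG 2960007, had 0.674%. In all, 12 pairs of neighbouring sites within a run had medians more than 30 points apart.

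A further 7 sites of run 1 varied between libraries and are called partly methylated here by their measured percentages alone. Whether these percentages reflect native methylation was not tested. CpG 2959071 (-326 bp) had 96.5 and 91.6% in untreated replicates 1 and 2. In gRNA-only replicates 1 and 2 it had 82.9 and 83.9% on day 3, 85.2 and 79.6% on day 7, and 81.0 and 82.6% on day 14. The 6 gRNA-only libraries thus all lay below both untreated libraries, and also below the 6 edited libraries, which had 85.6 to 95.1%. Its neighbours CpG 2959055 and CpG 2959091 had medians of 0.826 and 0.601%.

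CpG 2959145 and CpG 2959150 (-252 and -247 bp) moved together. At CpG 2959145 untreated replicates 1 and 2 had 5.37 and 18.6%. The gRNA-only replicates 1 and 2 there had 22.7 and 20.2% on day 3, 19.4 and 27.9% on day 7, and 23.6 and 21.6% on day 14. At CpG 2959150 the untreated libraries had 5.73 and 20.3% and the gRNA-only libraries 19.6 to 25.7%. Untreated replicate 1 was low at both sites, and untreated replicate 2 lay next to the gRNA-only libraries. At CpG 2959071 the libraries stood in nearly the reverse of their order at CpG 2959145. Untreated replicate 1 was the highest there (96.5%). The lowest was gRNA-only day 7 replicate 2 (79.6%), which was the highest at CpG 2959145.

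The remaining 4 partly methylated sites formed a pair of pairs around the TEAD4 start. CpG 2959320 and CpG 2959328 (-77 and -69 bp) had nearly the same value within each library, at most 0.482 points apart. CpG 2959377 and CpG 2959401 (-20 and 4 bp) differed by 1.49 to 3.00 points within a library. Across libraries the pairs ran in opposite directions. CpG 2959328 had 67.5 and 46.1% in untreated replicates 1 and 2, where CpG 2959377 had 35.6 and 60.1%. In gRNA-only replicate 1, CpG 2959328 had 33.4, 29.8 and 37.2% on days 3, 7 and 14, where CpG 2959377 had 69.8, 72.8 and 66.6%. In gRNA-only replicate 2, CpG 2959328 had 56.7, 52.9 and 53.1%, where CpG 2959377 had 46.2, 50.4 and 50.2%. The sum of the levels at these 2 sites stayed between 102.6 and 106.1% in all 8 libraries, although each site alone ranged over more than 37 points. In the edited libraries the sum was 106.4 to 130.3%. What set this sum was not tested, and amplicon positions were not used here. The 7 sites between the pairs had medians of only 0.642 to 1.17%. Replicate 1 of the gRNA-only cells lay below replicate 2 at CpG 2959328 on each of the 3 days, while untreated replicate 1 lay above untreated replicate 2.

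**Figure D2:**
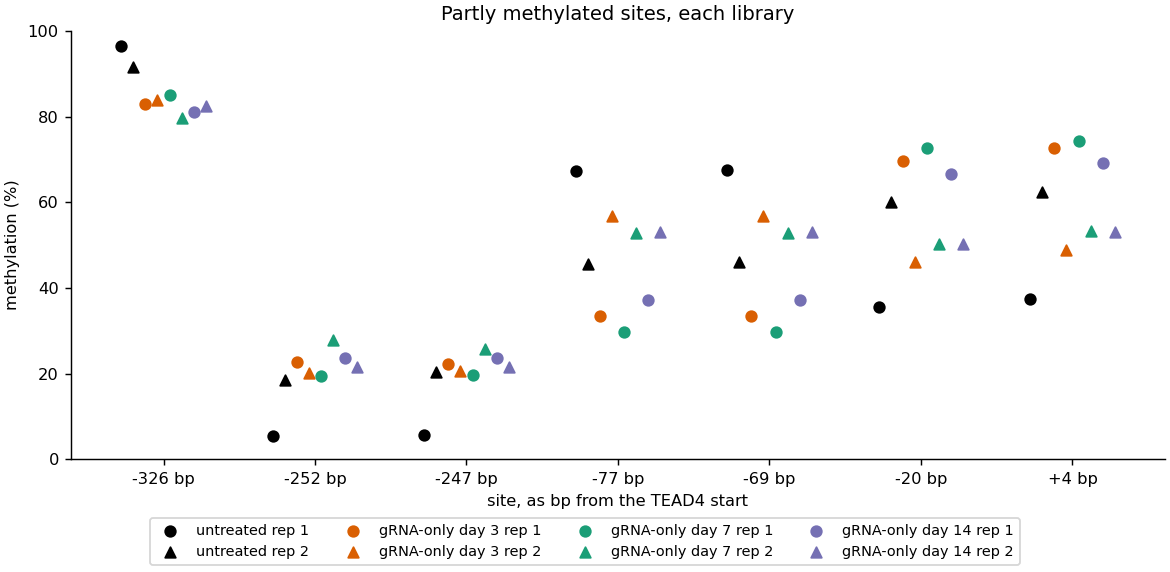
Methylation in percent (vertical) of the 7 partly methylated sites of run 1, named by their distance from the TEAD4 start (horizontal), with 1 point per library; colour gives the group and shape the replicate. At -77 and -69 bp the libraries stand in the reverse order of that at -20 and 4 bp, and at -326 bp the untreated libraries (96.5 and 91.6%) lie above all 6 gRNA-only libraries.

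How far the libraries agreed was measured as the absolute difference between 2 libraries, averaged over the 157 sites. Over the 28 pairs it ran from 0.289 to 5.81 points, with a median of 2.32 points. Pearson's r across sites, a description only because sites share libraries and few sites lie between the extremes, was 0.954 to 1.00. Among the low sites alone it ran from -0.086 to 0.945, so the values over all sites include the wide contrast of low with high sites.

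Agreement followed the replicate number more than the day among gRNA-only cells. The replicate 2 libraries of days 3, 7 and 14 differed from each other by 0.289 to 0.50 points, while the 2 libraries of the same day differed by 5.23, 2.13 and 1.74 points on days 3, 7 and 14. The replicate 1 libraries of days 7 and 14 differed by 0.976 points, and that of day 3 differed from them by 3.89 and 4.08 points. The 2 untreated libraries differed by 3.77 points, and untreated replicate 1 was closest to the gRNA-only replicate 2 libraries, at 0.875 to 1.06 points. The labels do not say what a replicate number stands for, and libraries of 1 number may not be independent across days.

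**Figure D3:**
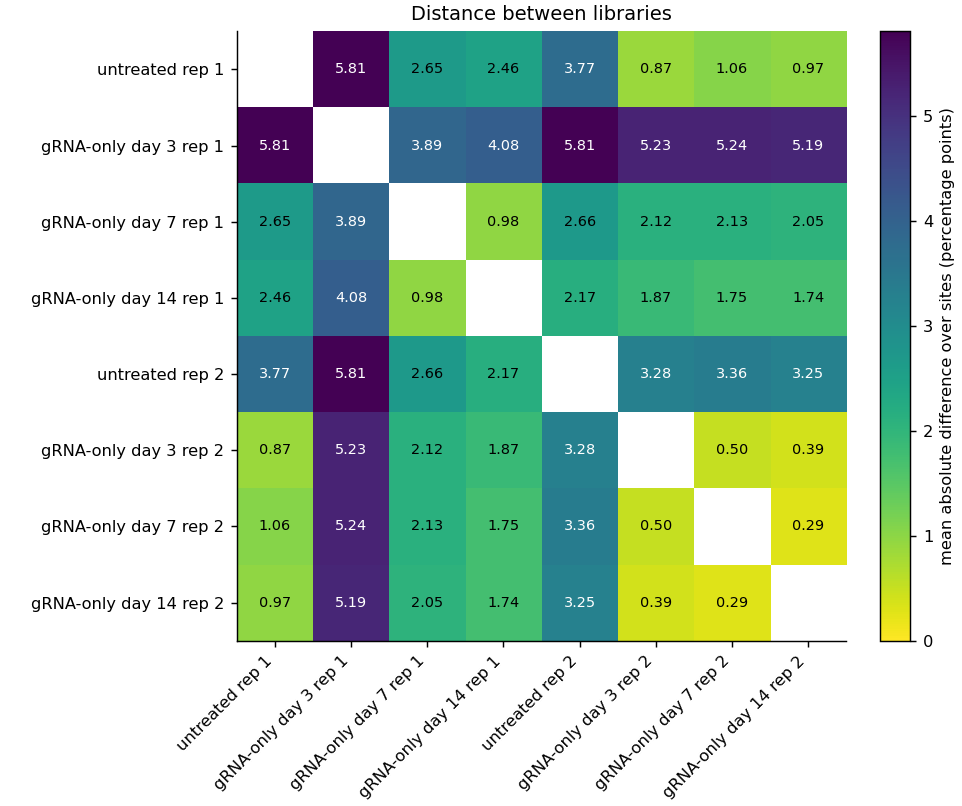
Mean absolute difference over the 157 sites, in percentage points, between each 2 of the 8 libraries, ordered by replicate number; darker cells are farther apart. The gRNA-only replicate 2 libraries and untreated replicate 1 form the closest block, and gRNA-only day 3 replicate 1 is the farthest from the rest, at 3.89 to 5.81 points.

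The spread at low sites came from stretches of consecutive sites that were raised in some libraries. In untreated replicate 1, 116 of the 131 low sites were under 1% and 3 were above 3%. In gRNA-only replicate 2, 112, 126 and 124 sites were under 1% on days 3, 7 and 14, and 1 was above 3% on each day. In gRNA-only replicate 1, 60, 31 and 28 sites were above 3% on days 3, 7 and 14, and in untreated replicate 2 there were 55. These 4 libraries with many raised sites are thus replicate 1 in the gRNA-only cells and replicate 2 in the untreated cells.

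The ends of a raised stretch are set by the 3% limit, and some were shared between libraries. Untreated replicate 2 had raised low sites from 2959099 to 2959196 (-298 to -201 bp, 10 sites, mean 6.31%) and from 2959337 to 2959566 (-60 to 169 bp, 40 sites, mean 8.70%). In the first of these the other 7 libraries had means of 0.573 to 1.03%. Its highest values were 12.1% at CpG 2959124 and 19.1% at CpG 2959561. In run 2 the same library was low, with a mean of 1.16% over the 37 low sites.

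Directly after the TEAD4 start the 33 low sites from 2959403 to 2959566 (6 to 169 bp) had higher means in these 4 libraries than in the other 4. Their mean was 9.10% in untreated replicate 2, with all 33 above 3%. In gRNA-only replicate 1 it was 4.74, 4.48 and 5.60% on days 3, 7 and 14, with 24, 23 and 28 sites above 3%. In the other 4 libraries it was 0.644 to 0.812%. CpG 2959561 had 19.1% in untreated replicate 2 and 10.9, 10.3 and 12.8% in gRNA-only replicate 1 of days 3, 7 and 14. In untreated replicate 1 it had 0.378%, and in gRNA-only replicate 2 it had 1.44, 0.888 and 0.498%. It was the highest of the 33 sites in the 4 raised libraries. In the edited libraries it had 21.2 to 78.4%, and its edited median of 23.9% was also the highest of the 33. The source of the raised levels was not tested. CpG 2959403, at the other end, had 5.32% in untreated replicate 2 and 2.18, 2.21 and 2.82% in gRNA-only replicate 1. Over the 33 sites gRNA-only replicate 1 of day 3 differed from that of day 7 by 0.373 points on average and by at most 1.04 points. The level of this stretch differed between libraries more than its profile along the sites. As a description, Pearson's r across the 33 sites was 0.981 to 0.999 between any 2 of the 4 libraries, which share the sites.

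Run 2 was raised in gRNA-only day 3 replicate 1 alone. Its 37 low sites averaged 15.2% there, with 32 above 3%, and 0.633 to 1.16% in the other 7 libraries. CpG 2959762, the first site of run 2, had 50.6% in that library, 8.13 and 5.69% in untreated replicates 1 and 2, and 7.27% in its day 3 partner. On days 7 and 14 it had 2.89 and 2.74% in replicate 1 and 8.94 and 8.49% in replicate 2. CpG 2959921 had 32.3% in gRNA-only day 3 replicate 1 and 0.620 to 1.27% in the other gRNA-only libraries. Levels within the raised run were uneven, from 1.78 to 50.6%. Over the raised low sites from 2959762 to 2959937 that library had a mean of 17.0%, and the edited libraries had means of 14.8 to 44.2%. Its lowest value was at CpG 2959950, where the edited median was 4.56%. At CpG 2959762 and CpG 2959921, its highest, the edited medians were 43.0 and 77.4%. Its 50.6% at CpG 2959762 lay above all edited libraries, which had 12.7 to 48.2%. These sites were picked by extreme values in that library, and likeness of its profile to edited cells was not tested.

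Run 3 was raised in a different set. Its 4 sites, shown in capitals at the end of the sequence above, averaged 9.94 and 10.2% in gRNA-only replicate 1 of days 3 and 7. In the same replicate of day 14 the mean was 0.941%, in gRNA-only replicate 2 it was 0.767 to 0.849%, and in the untreated libraries 1.34 and 2.41%. The values of days 3 and 7 nearly coincided site by site. CpG 2960254 had 15.81 and 15.83% and CpG 2960268 had 11.0 and 11.2%, and the mean difference over the 4 sites was 0.23 points.

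**Figure D4:**
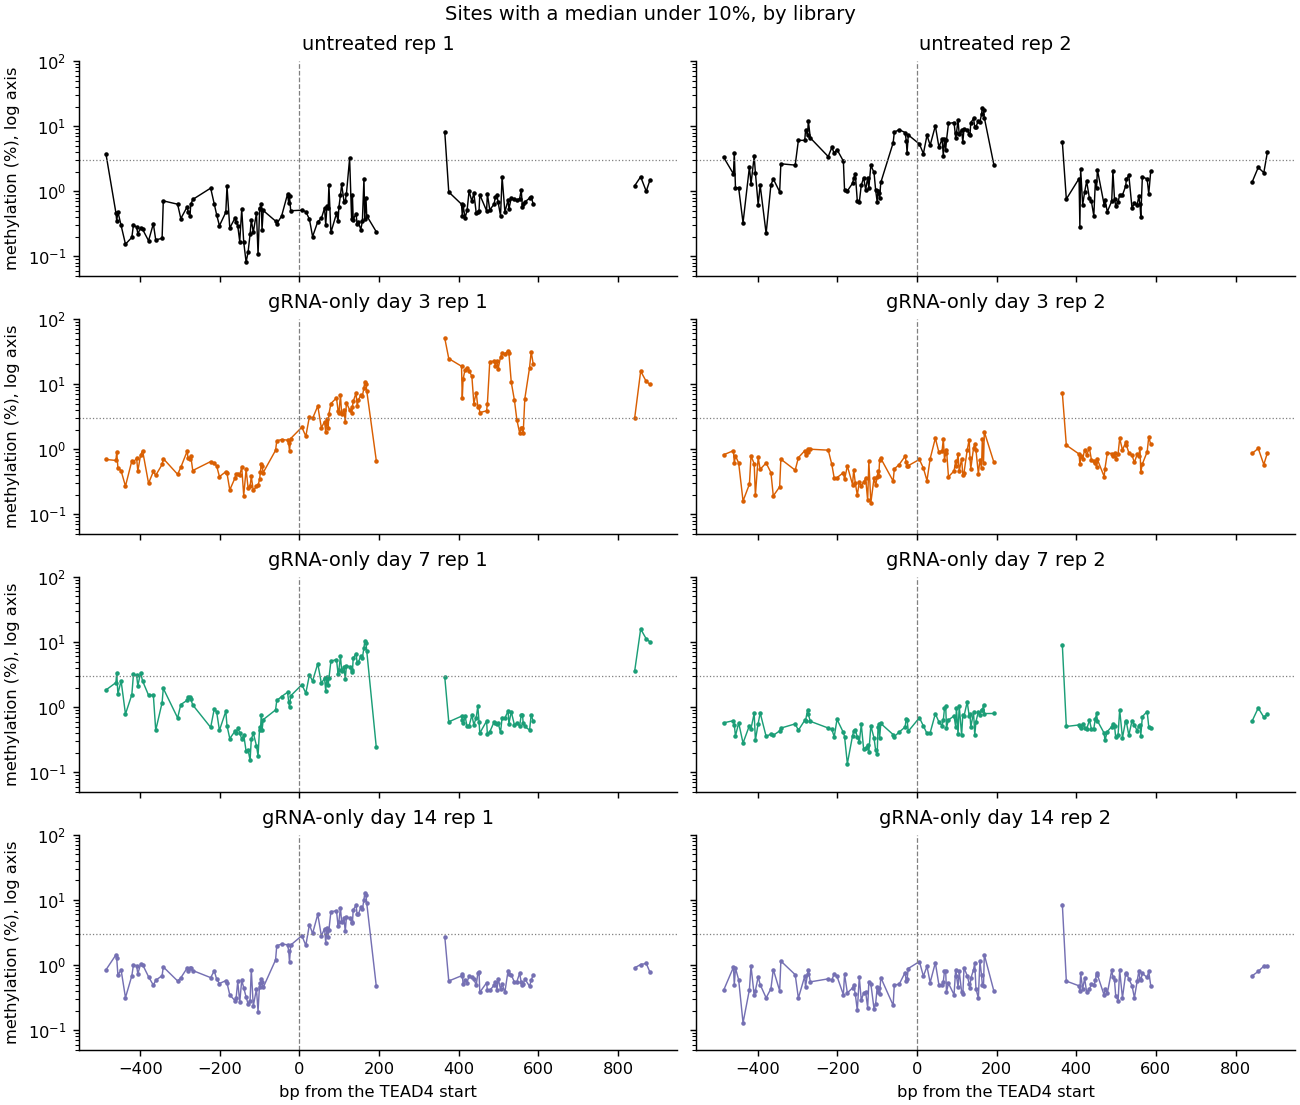
Methylation in percent on a log axis (vertical) of the 131 low sites against distance from the TEAD4 start in bp (horizontal), with 1 panel per library; lines join sites of a run, the dotted line marks 3% and the dashed line the start. Untreated replicate 2 and the 3 gRNA-only replicate 1 libraries rise above 3% after the start, run 2 rises in gRNA-only day 3 replicate 1, and run 3 rises in gRNA-only replicate 1 of days 3 and 7.

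The comparison of gRNA-only with untreated cells asks whether transfection with guides alone went with a difference in methylation. The labels give the untreated libraries neither a day nor a mock transfection. Guides, transfection, the selection described after it and time in culture therefore cannot be told apart here. No site passed. With limma on log2 odds over all 157 sites and 14 libraries, 0 sites had an adjusted p under 0.05 (0% of sites), and 3 sites (1.91%), all lower in gRNA-only cells, had an unadjusted p under 0.05. Quasi-binomial regression also called 0 sites, with 1 unadjusted. The gRNA-only mean was lower at 96 sites and higher at 61, the median difference was -0.380 points, and 72 sites differed by less than 1 point. These counts are not of independent sites, because neighbouring sites were raised together in some libraries. The mean difference over all sites changed sign with the untreated library that was left out. The 95% interval of a site's difference reached a median of 1.97 to either side on the log2 odds scale, and 9.38 points where limma was fitted to untransformed percent. The interval differed widely between sites. At CpG 2964225, in run 6, it was -1.23 to 1.33 points.

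By size, the 6 largest differences were at partly methylated sites, and none passed the threshold. CpG 2959328 and CpG 2959320 were 12.9 and 12.6 points lower by their means, though the groups overlapped: CpG 2959328 had 43.9% ± 11.7 (SD, n = 6) in gRNA-only libraries against 56.8% ± 15.1 (SD, n = 2) without treatment. CpG 2959401 and CpG 2959377 had means 12.1 and 11.5 points higher, with gRNA-only libraries between 46.2 and 74.3% and untreated libraries between 35.6 and 62.3%. Without untreated replicate 1 the differences were -2.19 and -1.74 points at CpG 2959328 and CpG 2959320, and -0.386 and -0.780 points at CpG 2959401 and CpG 2959377. All 4 differences therefore rest on that library.

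CpG 2959071 had the lowest unadjusted limma p. Its level was 82.6% ± 1.98 (SD, n = 6) in gRNA-only libraries against 94.0% ± 3.45 (SD, n = 2) without treatment. The difference was -1.84 ± 0.54 (SE) on the log2 odds scale, with an unadjusted limma p of 0.00711 and an adjusted p of 0.650; over 16 alternatives the limma or quasi-binomial adjusted p ran from 0.206 to 0.997. On untransformed percent its 95% interval was -17.2 to -5.75 points. CpG 2958911 (-486 bp) followed, with 3.74 and 3.35% in untreated cells and 0.406 to 1.83% in gRNA-only cells (limma unadjusted p = 0.00828, adjusted p = 0.650). Both sites had groups that did not overlap. Over all sites, gRNA-only libraries lay wholly below the untreated libraries at 7 sites (4.46%) and wholly above them at 3 (1.91%). Among these 10 sites, CpG 2959071 and CpG 2959145 were the only ones whose means differed by more than 5 points. The difference at CpG 2959145 was 10.6 points, and 3.99 points without untreated replicate 1. The libraries stood in nearly reverse order at CpG 2959071 and CpG 2959145, and whether their differences are separate was not tested.

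**Figure D5:**
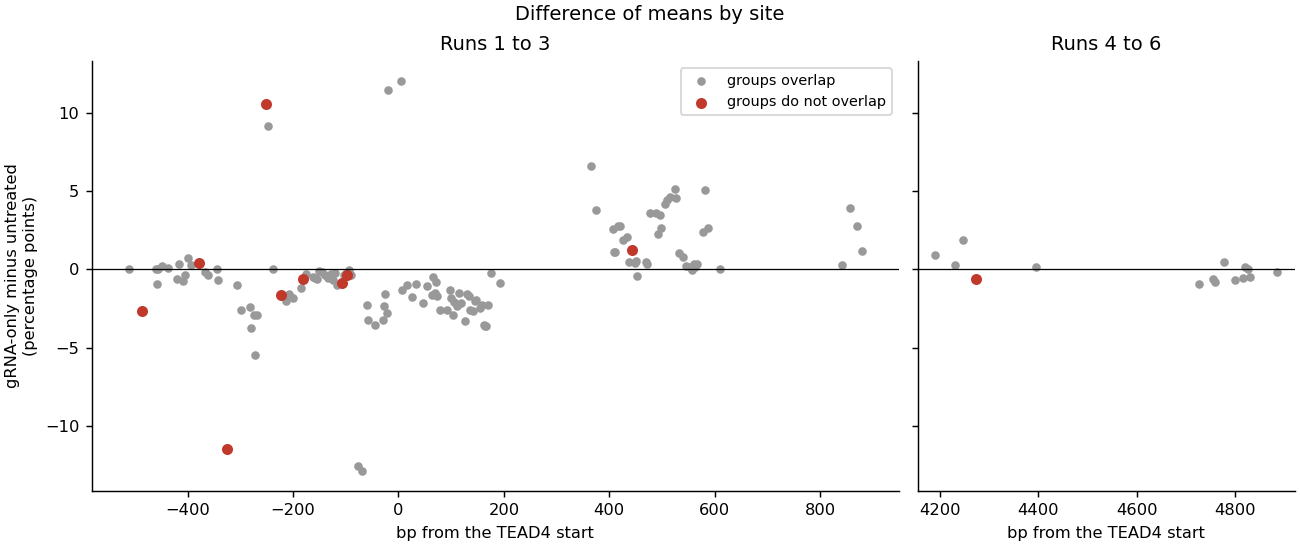
Difference of the mean methylation, gRNA-only (n = 6) minus untreated (n = 2), in percentage points (vertical) at each site against distance from the TEAD4 start in bp (horizontal); red points are sites where the libraries of the groups do not overlap. Most points lie within 5 points of 0, the low sites before and directly after the start lie mostly below 0, and the run 2 sites lie mostly above it.

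Over site groups no difference passed the exact test either. The mean over all sites was 15.6% ± 1.71 (SD, n = 6) with guides alone against 15.9% ± 2.11 (SD, n = 2) without treatment. The difference of -0.233 points had a 95% interval of -3.56 to 4.58 points, from inverting the two-sided exact permutation test (p = 0.964). In run 1 the untreated libraries had 6.63 and 11.2%, and the gRNA-only libraries, at 6.87 to 8.67%, lay between them. The run 1 difference of -1.23 points had an interval of -4.31 to 2.03 points (exact adjusted p = 0.929). It was -3.51 points without untreated replicate 1 and 1.04 points without untreated replicate 2. In run 2 the difference of 2.09 points rests on gRNA-only day 3 replicate 1, at 17.5%, and was -0.256 points without it; its interval was -7.53 to 13.9 points (exact adjusted p = 1.0). Run 3 had 3.92% ± 4.75 (SD, n = 6) with guides alone against 1.88% ± 0.758 (SD, n = 2) without treatment. That difference of 2.04 points had an interval of -10.2 to 8.81 points (exact adjusted p = 1.0), and was 0.837 points without gRNA-only day 3 replicate 1 and 0.791 points without day 7 replicate 1. The differences in runs 4, 5 and 6 were 0.616, 0.179 and -0.359 points, and their adjusted p by the exact test lay between 0.857 and 1.0. Before the TEAD4 start the means of the gRNA-only libraries were close, at 7.78 to 8.12%. The untreated libraries had 7.88 and 10.2% there (difference -1.05 points, interval -2.41 to 0.236 points, exact adjusted p = 0.857). That difference was -2.21 points without untreated replicate 1 and 0.113 points without untreated replicate 2. The close means do not show agreement site by site, because opposite differences offset in them. Among the gRNA-only libraries CpG 2959328 ran from 29.8 to 56.7% and CpG 2959377, in reverse order, from 46.2 to 72.8%. The adjustment covers 8 site groups, and 6 libraries against 2 cannot give an exact p below 0.0357. The exact test, its intervals and the SDs treat the 6 gRNA-only libraries as separate units. Libraries of the same replicate number may not be independent across days.

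By day, gRNA-only cells showed no called difference from untreated cells or between days. At a limma adjusted p under 0.05, 0 sites (0%) passed on day 3, day 7 or day 14 against untreated cells, with 12 (7.64%), 2 (1.27%) and 2 (1.27%) sites unadjusted. Quasi-binomial regression called 0 in each, with 2, 1 and 1 unadjusted. Of the 12 sites on day 3, 10 lay in run 2. Between days limma called 0 sites (0%), with 16 (10.2%), 20 (12.7%) and 0 (0%) unadjusted for day 7 minus 3, day 14 minus 3 and day 14 minus 7; quasi-binomial regression called 0, with 6, 6 and 0 unadjusted. All of these 16 and 20 sites lay in run 2 and were lower on the later day. These unadjusted counts depend on the fit. With limma on the 8 unedited libraries alone, there were 2 sites for day 3 against untreated cells, none of them in run 2, and 0 for either later day against day 3. On untransformed percent the counts were 1, 0 and 0, with 0 in run 2. The comparisons with day 3 share its libraries, and those with untreated cells share theirs.

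The day 3 values depend on which library is kept. The largest day 3 differences from untreated cells were the higher means at CpG 2959762, 22.0 points with a limma adjusted p of 0.785, and CpG 2959921, 15.8 points with an adjusted p of 0.558. Without gRNA-only day 3 replicate 2, which leaves replicate 1 alone, these differences were 43.7 points at CpG 2959762 and 31.4 points at CpG 2959921. Without day 3 replicate 1 they were 0.355 and 0.306 points. Both differences therefore rest on day 3 replicate 1, the library in which run 2 was raised. From day 7 to day 14 the mean of CpG 2960254 differed by -7.49 points and that of CpG 2960268 by -4.92 points, both in run 3. The limma adjusted p was 0.999 for both and for CpG 2959320, whose difference was 3.84 points.

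Unedited libraries reached the levels of edited ones at many sites. At 76 of 157 sites (48.4%) every edited library lay above all 8 unedited libraries, and no test was made of this count. At the other 81 sites at least 1 unedited library reached the lowest edited value, and 15 of them were the sites of runs 4 to 6. The lowest edited value was reached at 49 sites by untreated replicate 2, at 47 by gRNA-only day 3 replicate 1, and at 20 to 23 by each of the others. Leaving out those 2 libraries, chosen after their raised stretches were seen, gives 130 sites; leaving out libraries can only raise this count.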

How the data were processed

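Targeted bisulfite amplicon sequencing was done on genomic DNA of 14 libraries. Bisulfite converts cytosine unless it is methylated, and converted bases are sequenced as thymine. The deposited values are methylation in percent per CpG site, with decimal commas; per the submitters' processing notes, Trim Galore 0.6.7 and Bismark 0.23.1 were used with hg38. Filters and the step from calls to percent are not given in the sources used here. No read counts were used, so no counting interval is given. No 2 of the 8 libraries had an identical value at any site.

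The per-site test was limma 3.58.1 (R 4.3.3) on log2((percent + 0.1)/(100 − percent + 0.1)) over the 157 sites, using all 14 libraries so that the 7 groups share an estimate of the spread, with Benjamini-Hochberg adjustment at 0.05. It was tested on simulated data in which sites varied independently. That setting does not cover stretches of sites raised together in a library, as seen here. Site groups were compared by exact permutation over library means. Named sites are the largest differences, the highest, lowest and intermediate medians, the largest ranges, steps above 30 points and methylated sites of runs 1 to 3. Raised means above 3%, in stretches of at least 3 low sites. The libraries, lists, limits and tests were chosen with earlier results of these data known. CpG 2959124, CpG 2959561 and others inside raised stretches were named after their values were seen. Other steps ran in Python 3.11.15 with pandas 2.3.3, scipy 1.17.1 and numpy 2.4.6, and matplotlib 3.10.9 drew the plots. Gene positions are those of RefSeq on GRCh38.p14.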

Additional observations from a re-analysis of the deposited data

Results flagged for a closer look

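Among the 6 gRNA-only libraries, 41 sets of values were examined for a library far from the others by Dixon's 95% limit, and 10 exceeded it. For sets chosen without their values, chance exceeds it in about 1 set in 20. That rate does not apply here, because some sites were named for large ranges or differences in these libraries. The sets also share sites. Day 3 replicate 1 was high in the mean over all sites (18.96% against 14.5 to 15.6%), in run 2 (17.46% against 3.25 to 3.62%) and inside the gene (26.65% against 19.0 to 20.8%). It was also high at CpG 2959762 (50.62%), CpG 2959921 (32.32%) and CpG 2959984 (20.59%), and at CpG 2960007 it had exactly 100.0% against 99.976 to 99.979%. Day 7 replicate 1 was high at CpG 2958911 (1.834% against 0.406 to 0.843%) and CpG 2958960 (0.783% against 0.130 to 0.316%). Day 3 replicate 2 was high at CpG 2959174 (0.966% against 0.477 to 0.646%).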

How the results depend on the processing

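Of the values recomputed for the comparisons, 232 stayed on their side of the threshold or within the replicate spread, 6 moved further and 3 gained calls. For gRNA-only against untreated cells, 0 sites passed in each of the 16 alternatives, and without untreated replicate 1 26 sites had an unadjusted limma p under 0.05. Leaving out each library in turn gave 0 to 31 sites for day 3 against untreated cells, 0 to 30 for day 7 against day 3 and 0 to 32 for day 14 against day 3. The number of intermediate sites was 9 with bounds of 5 and 80%, and 2 to 5 with a library left out. The median distance between libraries was 0.590 points with the median over sites in place of the mean, and 2.05 to 2.66 points with a library left out. The mean difference over all sites changed sign with the untreated library that was left out, and ran from -1.73 points without untreated replicate 1 to 1.26 points without untreated replicate 2. Without untreated replicate 2 and gRNA-only day 3 replicate 1, an alternative chosen after the data were seen, it was 0.598 points.

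Replicate numbers are shared by the groups, but the deviations of same-numbered libraries correlated at 0.246 to 0.751 among gRNA-only days and at -0.034 to -0.727 with untreated cells, so the numbers were not taken to pair the samples. With a replicate block limma called 0 sites in all 7 comparisons, and the mean difference over all sites stayed at -0.233 points (exact permutation p = 1.0 within replicate numbers). The alternatives cover the fit on the 8 libraries alone, untransformed percent, offsets of 1 and 0.01, a variance trend and quasi-binomial regression. Unknown depth and 2 untreated libraries limit what could be detected.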
